A study of Mus musculus with 16 samples.

Results

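Metallothioneins and the genes that move zinc across membranes were followed in the reperfused mouse heart. The 6 genes were taken by name from the platform's annotation: Mt1, Mt2, Mt3, Mtf1, Slc30a1 and Slc39a14. All 6 were found among the 19505 genes that the array measures under 1 symbol, each with 1 probe set. The mice were wild-type C57BL/6 males of 10 weeks with no transgene named in the labels, and whole-heart RNA was hybridised to 1 array per heart. In 12 mice a ligature closed the left anterior descending coronary artery for 30 min, and reperfusion then lasted 6, 24 or 72 h, with 4 hearts at each time; 4 hearts came from sham-operated mice. The labels give no hour for the sham hearts, and all times are set against these 4 arrays, so a change with time since surgery and a change with reperfusion cannot be told apart. The comparisons ask how far each gene's signal lay from sham at each time, and how far the times lay from one another.

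Metallothioneins are small cysteine-rich proteins that bind zinc and copper and buffer the free zinc of the cell. When free zinc rises, the zinc-finger factor MTF-1, the product of Mtf1, binds short metal response elements in the promoters of Mt1, Mt2 and Slc30a1 and switches them on. Mt1 and Mt2 are also known to respond to glucocorticoids, to interleukin-6 acting through STAT3, and to oxidants. Slc30a1 encodes ZnT1, the zinc exporter of the plasma membrane, and Slc39a14 encodes ZIP14, which imports zinc, manganese and iron not bound to transferrin and is an acute-phase gene of the liver. Mt3 is chiefly a brain metallothionein.

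The promoters of the metallothioneins and of Slc30a1 are shown first because they carry the elements through which MTF-1 acts. RefSeq windows on build GRCm38.p6, 250 bases before to 50 bases after each gene's start, were at hand for 5 of the 6 genes. The metal response element was searched as TGCACNC and TGCGCNC on both strands, and no match of another motif searched overlapped one of its matches in these windows. In the sequences below, the 250 bases before the start are printed on the plus strand with each match in capitals. Mt2 lies at chr8:94172368-94172617, Mt1 at chr8:94178839-94179088 and Slc30a1 at chr1:191906531-191906780.
Mt2: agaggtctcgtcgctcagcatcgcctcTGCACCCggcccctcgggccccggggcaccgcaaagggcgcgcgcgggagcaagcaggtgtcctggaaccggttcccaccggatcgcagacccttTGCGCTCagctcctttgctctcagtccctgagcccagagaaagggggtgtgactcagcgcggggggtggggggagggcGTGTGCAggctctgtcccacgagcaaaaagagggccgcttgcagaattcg
Mt1: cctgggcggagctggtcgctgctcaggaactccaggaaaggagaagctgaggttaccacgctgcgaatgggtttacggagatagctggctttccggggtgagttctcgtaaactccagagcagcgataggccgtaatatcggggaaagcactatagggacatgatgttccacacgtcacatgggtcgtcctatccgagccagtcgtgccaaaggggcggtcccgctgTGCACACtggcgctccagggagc
Slc30a1: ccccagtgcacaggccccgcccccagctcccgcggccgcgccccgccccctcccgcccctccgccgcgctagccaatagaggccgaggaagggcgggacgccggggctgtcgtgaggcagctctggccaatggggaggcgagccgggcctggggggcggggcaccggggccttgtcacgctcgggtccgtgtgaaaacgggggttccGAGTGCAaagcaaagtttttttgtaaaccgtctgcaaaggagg
Some matches lay just after the RefSeq start used here, and only those short stretches are printed. The stretch of Mt1 covers bases 2 to 28 after that start.
Mt1, after the start: cTGCACTCcgcccgaaaagTGCGCTCg
Mt2, after the start: cGTGCGCAg
Slc30a1, after the start: cGAGCGCAg
Mt3, after the start: gTGCACACa
Over the whole window of 300 bases, Mt2 held 4 matches, Mt1 held 3, Slc30a1 held 2, Mt3 held 1 and Mtf1 held 0. Of 32851 promoter windows of the same length, 25.7% held at least 1 match, 7.11% at least 2, 1.97% at least 3 and 0.517% at least 4. Another motif, the antioxidant response element searched as TGACNNNGC, matched 1 time in Mt2 and 1 time in Slc30a1, and 12.4% of windows held it. A STAT element searched as TTCNNNGAA was in none of the 5 windows and in 8.3% of all windows. These are matches of letters in a short window and do not show that a factor bound there. The counts, and which matches lie before or after the start, depend on the RefSeq start used. Other starts were not searched, so the counts do not rank the genes by their number of elements.

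The values are the authors' log2 signals, so a difference of 1 is a 2-fold difference on their scale. Levels below 6.76, the 75th percentile of 5222 negative controls, are called below background. A change is the difference of mean log2 signal between 4 and 4 arrays with its SE from limma. "Rose" and "fell" are kept for an adjusted p under 0.05, and 95% intervals are those of single differences. Marker lists matched the tissue label: 10 cardiomyocyte markers had array means of 17.09 to 17.66, and the 8 liver and 7 T and B cell markers were all below background in every group. Neutrophil markers were highest at 6 and 24 h and monocyte and macrophage markers at 24 and 72 h. Among the 24 h arrays, replicate 17 was the lowest for both leukocyte lists, and replicate 16 had an atrial marker mean of 9.99 against 7.19 to 7.29 in the other 3. In whole-heart RNA, fewer cells of a type and less RNA per cell cannot be told apart.

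At 6 h of reperfusion, Mt2, Mt1 and the zinc importer Slc39a14 rose together. Mt2 was 15.1-fold above sham, Slc39a14 3.27-fold and Mt1 2.42-fold, while Mtf1, Slc30a1 and Mt3 did not pass the test. In that comparison 3 of the 6 genes were called and all 3 rose, where 20.2% of all genes were called and 7.92% rose. The same 3 had 4 and 4 arrays that did not overlap, which held for 22.8% of all genes. At 24 h Mt2 was still 4.32-fold above sham, and Slc30a1 was the other gene that rose, by 1.41-fold. That made 2 of 6 called, both higher, against 26.1% of all genes called and 13.8% higher, and only Mt2 had arrays that did not overlap, against 25.9% of all genes. At 72 h limma called 0 of 6, where 21.8% of all genes were called. There, 1 of 6 had an unadjusted p under 0.05, 0 of 6 had arrays that did not overlap (27.1% of all genes), and without sham replicate 5 limma called 2. The median change of the 6 genes was 0.59, 0.31 and -0.22 log2 units at 6, 24 and 72 h, beside -0.04, -0.07 and -0.09 over all genes. Over the 4 groups at once, limma's F test called 4 of 6 genes, Mt1, Mt2, Slc30a1 and Slc39a14, beside 44.5% of all genes.

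**Figure D1:**
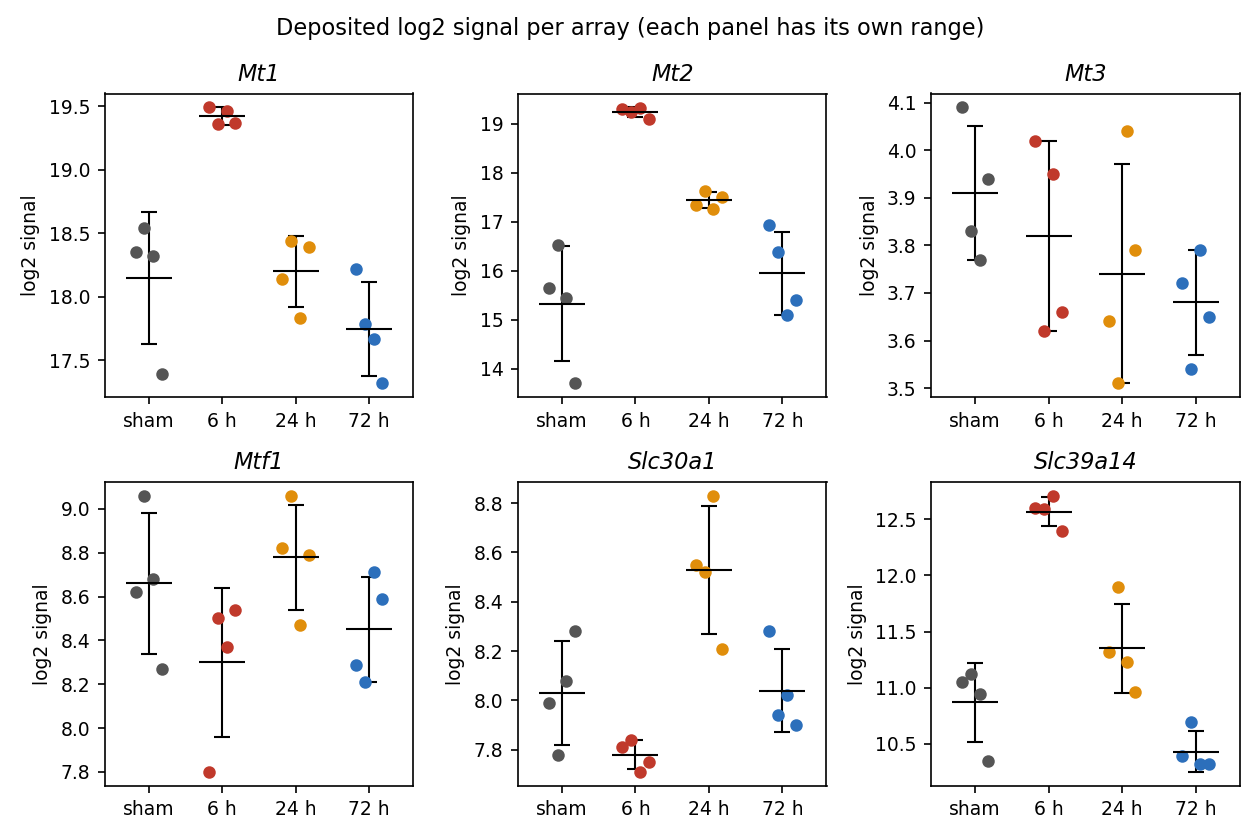
Log2 signal of each gene on each array (y axis, with its own range in each panel) for sham and for 6, 24 and 72 h of reperfusion (x axis). Points are arrays and bars are the mean and SD of 4 arrays; the 6 h arrays of Mt1, Mt2 and Slc39a14 all lie above the highest sham array, while those of Mt3 and Mtf1 overlap sham at every time.

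Mtf1, which encodes the zinc-sensing factor, passed in no comparison with sham, and limma's F test over the 4 groups gave an adjusted p of 0.171. Its sham arrays read 8.62, 9.06, 8.68 and 8.27, and its 6 h arrays 7.80, 8.50, 8.37 and 8.54. The 24 h arrays read 8.82, 9.06, 8.47 and 8.79, and the 72 h arrays 8.29, 8.21, 8.71 and 8.59. All the groups overlapped in these values, and replicate 7 of the 6 h group was the lowest of all 16. The change at 6 h was -0.36 ± 0.20 (adjusted p = 0.245, 95% interval -0.77 to 0.05). It was 0.12 ± 0.20 at 24 h (adjusted p = 0.705) and -0.21 ± 0.20 at 72 h (adjusted p = 0.495). The 95% interval at 24 h ran from -0.29 to 0.54, so the data do not show that the factor's own transcript was unchanged. With the arrays centred on their poly-A spike-ins, the 6 h difference passed as lower, at -0.70 (adjusted p = 0.0166). From 6 to 24 h the difference was 0.48 (adjusted p = 0.074), and it passed without replicate 16 of the 24 h group at 0.59 (adjusted p = 0.0443). It also passed with centring on the hybridization spike-ins (1.01, adjusted p = 0.000979), with poly-A centring (0.72, adjusted p = 0.0133) and among genes above background (0.48, adjusted p = 0.0469).

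Mt2 encodes the metallothionein with the widest range here. Its sham arrays read 15.64, 16.52, 15.45 and 13.70, a mean of 15.33 ± 1.18 (SD, n = 4). At 6 h they read 19.30, 19.24, 19.33 and 19.11 (19.24 ± 0.10, SD, n = 4). The 6 h arrays lay close together and far above sham, and sham replicate 5, at 13.70, was the lowest of all 16 arrays. The 24 h arrays read 17.34, 17.63, 17.27 and 17.51 (17.44 ± 0.16, SD, n = 4), all above sham and all below 6 h. The 72 h arrays read 16.93, 16.38, 15.10 and 15.41 (15.95 ± 0.85, SD, n = 4) and overlapped sham. Mt2 rose by 3.92 ± 0.43 at 6 h (adjusted p = 1.55e-06, 95% interval 3.02 to 4.81) and by 2.11 ± 0.43 at 24 h (adjusted p = 0.000913). At 72 h the difference of 0.63 did not pass (adjusted p = 0.328, 95% interval -0.27 to 1.52). The order of its levels was 6 h, 24 h, 72 h and sham, and each neighbouring pair but 72 h and sham passed. Between times, Mt2 fell by 1.80 from 6 to 24 h (adjusted p = 0.00327) and by 1.49 from 24 to 72 h (adjusted p = 0.0246). The fall from 24 to 72 h no longer passed without replicate 15 of the 24 h group (adjusted p = 0.0695) or without replicate 22 (adjusted p = 0.0975) or 23 (adjusted p = 0.0827) of the 72 h group. Without sham replicate 5, the rise was 3.38 at 6 h (adjusted p = 8.5e-07) and 1.57 at 24 h (adjusted p = 0.00164). The 72 h difference was then 0.08 (adjusted p = 0.89). With the arrays centred on their hybridization spike-ins, the 72 h difference passed as higher, at 1.12 (adjusted p = 0.0335).

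Mt1, the neighbour of Mt2 and its closest relative in function, rose at 6 h and lay near sham by 24 h. Its sham arrays read 18.35, 18.54, 18.32 and 17.39 (18.15 ± 0.52, SD, n = 4) and its 6 h arrays 19.49, 19.36, 19.46 and 19.37 (19.42 ± 0.07, SD, n = 4). The 24 h arrays read 18.14, 18.44, 17.83 and 18.39, and the 72 h arrays 18.22, 17.79, 17.67 and 17.32. The 6 h arrays stood above all others, and the other 3 groups overlapped one another. Mt1 rose by 1.27 ± 0.22 at 6 h (adjusted p = 0.000329, 95% interval 0.80 to 1.74). Its change was 0.05 at 24 h (adjusted p = 0.902, 95% interval -0.42 to 0.52) and -0.40 at 72 h (adjusted p = 0.228, 95% interval -0.87 to 0.07). In order of level, 6 h came first, then 24 h, sham and 72 h, and no pair of neighbours among the last 3 passed. Mt1 fell by 1.22 from 6 to 24 h (adjusted p = 0.000384). Sham replicate 5 was again the lowest sham array, and without it Mt1 rose by 1.02 at 6 h (adjusted p = 0.000832) and the 72 h difference became -0.65 and passed (adjusted p = 0.0206).

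Mt1 and Mt2 both came close to the top of the deposited scale at 6 h. The highest signal on an array lay between 19.63 and 19.82. Mt1 stood 1.15 to 2.31 below it in sham and 0.21 to 0.38 below it at 6 h, and Mt2 stood 3.17 to 5.99 below it in sham and 0.34 to 0.64 below it at 6 h. At 24 h, away from that top, Mt2 stood 2.07 to 2.40 below it. Whether the top of the scale holds down the 6 h values was not tested, and neither was the difference in change between Mt1 and Mt2.

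Mt3 stayed below background on all 16 arrays, between 3.51 and 4.09, and no time passed against sham. Its changes were -0.09, -0.16 and -0.23 at 6, 24 and 72 h (adjusted p = 0.756, 0.464 and 0.289), each with an SE of 0.15. Mt4, a metallothionein of stratified epithelia and the only other family member measured, also had all 4 group means below background, at 4.31 in sham and 4.81 at 6 h (adjusted p = 0.197). Of the 4 metallothioneins, 2 rose at 6 h, 1 at 24 h and 0 at 72 h, and the metallothionein signal that was above background came from Mt1 and Mt2.

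The 4 genes lie side by side on chromosome 8 in the order Mt4, Mt3, Mt2, Mt1. The 3 measured genes on each side were looked at for comparison: Nudt21, Ogfod1 and Bbs2 before Mt4, and Nup93, Slc12a3 and Herpud1 after Mt1. None of these 6 rose at 6 h and 3 fell, beside 7.92% and 12.3% of all genes, so the lack of a rise lies near the background. Ogfod1, a hydroxylase of the ribosome, fell by 0.58 (adjusted p = 0.00557), Bbs2, a part of the ciliary BBSome, fell by 0.73 (adjusted p = 0.0125), and Herpud1, a gene of endoplasmic reticulum stress, fell by 1.12 (adjusted p = 0.000702). The other 3 did not pass, with changes between -0.16 and 0.09, and Slc12a3 was below background.

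Slc30a1, the exporter, had its highest level at 24 h and not at 6 h. Its sham arrays read 7.99, 7.78, 8.08 and 8.28, and its 6 h arrays 7.81, 7.84, 7.71 and 7.75. The 24 h arrays read 8.55, 8.52, 8.83 and 8.21, and the 72 h arrays 8.28, 7.94, 8.02 and 7.90. The 6 h arrays lay within or below the sham range, and 3 of the 4 arrays at 24 h lay above every sham array. The change was -0.26 ± 0.15 at 6 h (adjusted p = 0.284, 95% interval -0.57 to 0.06). Slc30a1 rose by 0.49 ± 0.15 at 24 h (adjusted p = 0.0195, 95% interval 0.18 to 0.81), with arrays that overlapped sham, and the change was 0.00 at 72 h (adjusted p = 0.992). The 24 h call was lost without sham replicate 3 (0.41, adjusted p = 0.0751) and without 24 h replicate 16, the array with the high atrial markers (0.39, adjusted p = 0.0798). The difference between times was firmer: Slc30a1 rose by 0.75 from 6 to 24 h (adjusted p = 0.000861), with arrays that did not overlap. In order of level, 24 h came first, then 72 h, sham and 6 h, and none of the pairs of neighbours after 24 h passed. From 24 to 72 h it fell by 0.49 (adjusted p = 0.0362), a call that was lost on leaving out any of 6 arrays: replicates 14, 15 and 16 of the 24 h group and replicates 21, 22 and 23 of the 72 h group, with adjusted p between 0.0732 and 0.134. It was also lost with hybridization (-0.30, adjusted p = 0.297) and poly-A spike-in centring (-0.21, adjusted p = 0.453), with a trend in eBayes (adjusted p = 0.0521) and in a fit of only the 2 groups (adjusted p = 0.0791). The 72 h difference of Slc30a1 from sham passed as higher with hybridization spike-in centring (0.50, adjusted p = 0.026).

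Slc39a14, the importer, rose with the metallothioneins at 6 h. Its sham arrays read 11.05, 11.12, 10.94 and 10.35 (10.87 ± 0.35, SD, n = 4) and its 6 h arrays 12.60, 12.59, 12.71 and 12.40 (12.57 ± 0.13, SD, n = 4). The 24 h arrays read 11.32, 11.90, 11.23 and 10.96, and the 72 h arrays 10.39, 10.69, 10.32 and 10.32. The 6 h arrays stood above all others, and the 72 h arrays lay below 3 of the 4 sham arrays but overlapped sham through replicate 5. Slc39a14 rose by 1.71 ± 0.19 at 6 h (adjusted p = 2.66e-06, 95% interval 1.30 to 2.11). The difference was 0.49 at 24 h (adjusted p = 0.073, 95% interval 0.08 to 0.89) and -0.44 at 72 h (adjusted p = 0.122, 95% interval -0.84 to -0.03). Both of these turned on single arrays and on the processing: the 24 h difference passed without 24 h replicate 17 (0.62, adjusted p = 0.0253), and the 72 h difference passed as lower without sham replicate 5 (-0.61, adjusted p = 0.0268). The 24 h difference also passed with hybridization spike-in centring (0.80, adjusted p = 0.00874) and among genes above background (0.49, adjusted p = 0.0445), and the 72 h difference with median centring (-0.55, adjusted p = 0.0442). The levels ran in the order 6 h, 24 h, sham, 72 h, and only the first step passed between neighbours. Slc39a14 fell by 1.22 from 6 to 24 h (adjusted p = 9.92e-05) and by 0.92 from 24 to 72 h (adjusted p = 0.0029).

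**Figure D2:**
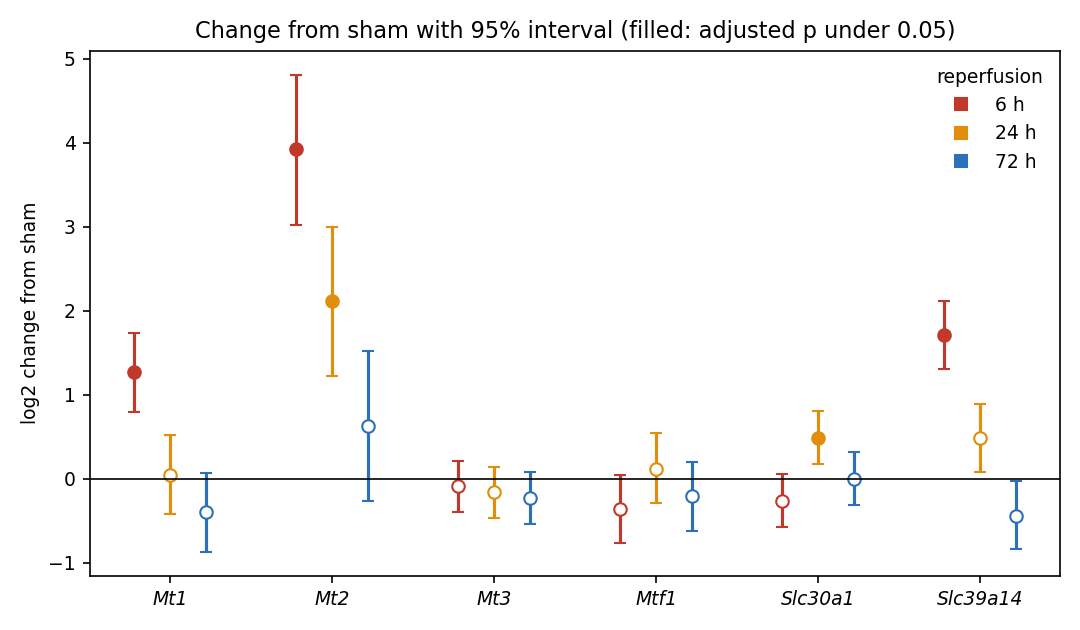
Change in log2 signal from sham (y axis) for each of the 6 genes (x axis) at 6, 24 and 72 h of reperfusion. Points are differences of the means of 4 and 4 arrays, bars are 95% intervals and filled points passed at an adjusted p under 0.05; Mt2 has the largest change of the 6 at 6 h, 3.92, and Slc30a1 passes at 24 h alone.

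Between the reperfusion times themselves, 4 of the 6 genes were called from 6 to 24 h, where 28.2% of all genes were called, 17.3% higher and 10.9% lower, and the arrays of these 4 did not overlap (24.9% of all genes): Mt1, Mt2 and Slc39a14 fell and Slc30a1 rose. From 24 to 72 h, 3 were called, all lower, against 12.9% of all genes called, 6.85% higher and 6.07% lower, and 2 had arrays that did not overlap (15.6% of all genes): Mt2, Slc30a1 and Slc39a14 fell. From 6 to 72 h, 3 were called, all lower, against 30.6% of all genes called and 13.1% lower, and 4 had arrays that did not overlap (30.5% of all genes). Mt2 fell by 3.29 (adjusted p = 7.03e-06), Slc39a14 by 2.14 (adjusted p = 8.22e-08) and Mt1 by 1.67 (adjusted p = 1.06e-05). Slc30a1 had 6 h arrays that all lay below the 72 h arrays, but its difference of 0.26 did not pass (adjusted p = 0.209). That difference passed with hybridization (0.977, adjusted p = 4.7e-05) and poly-A spike-in centring (0.785, adjusted p = 0.00145). These comparisons share arrays with those against sham.

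The zinc transporter families were read whole for comparison, with Slc30a1 and Slc39a14 counted among them. All 24 genes of the families SLC30, which move zinc out of the cytosol, and SLC39, which move it in, were measured, and 10 of them were below background in every group. At 6 h, 4 of 24 rose and 3 fell, beside 7.92% and 12.3% of all genes. Without Slc30a1 and Slc39a14 it was 3 and 3 of 22. With the arrays centred on their poly-A spike-ins the split of the 24 turned to 2 and 8. Over all 19505 genes it was then 864 higher and 6087 lower. The exporters counted 1 rise and 2 falls of 10, with a median change of -0.23. The importers counted 3 rises, that of Slc39a14 among them, and 1 fall of 14, with a median of -0.07. The rise of Slc39a14 was thus not shared by most importers. Slc39a10, an importer of the plasma membrane, rose by 1.04 ± 0.17 (adjusted p = 0.000142). Slc30a6, which works with Slc30a5 in the secretory pathway, fell by 0.91 ± 0.20 (adjusted p = 0.00262). Slc39a8, the closest relative of Slc39a14, fell by 0.60 ± 0.21 (adjusted p = 0.0493) with both means below background. The count of 3 falls became 1 without sham replicate 2, 4 or 5, or without 6 h replicate 7.

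By 24 h, 10 of 24 zinc transporters had risen and 1 had fallen, beside 13.8% and 12.3% of all genes. Without Slc30a1 and Slc39a14 it was 9 and 1 of 22. The importers that rose most were other ones than at 6 h. Slc39a6, a plasma membrane importer, read 8.93, 8.25, 8.78 and 9.11 in sham and 10.68, 11.81, 11.60 and 9.91 at 24 h. Slc39a13, which serves the secretory pathway and connective tissue, read 7.42, 7.03, 7.62 and 7.02 in sham and 9.50, 9.78, 8.62 and 8.86 at 24 h. In both genes every 24 h array lay above every sham array. Slc39a6 rose by 2.23 ± 0.33 (adjusted p = 4.06e-05), Slc39a13 by 1.92 ± 0.25 (adjusted p = 1.15e-05) and Slc39a7, which releases zinc from the endoplasmic reticulum, by 1.53 ± 0.24 (adjusted p = 8.92e-05). The sham mean of Slc39a7, 6.60, was below background, so the size of its change depends on the background. The exporters counted 5 rises and 1 fall of 10 (median 0.24) and the importers 5 rises and 0 falls of 14 (median 0.35). Among the importers, Slc39a1 rose at 6, 24 and 72 h alike, by 0.57, 1.08 and 0.55 (adjusted p = 0.0214, 9.54e-05 and 0.0273). With poly-A spike-in centring 5 rose and 2 fell, where 2033 of all 19505 genes were higher and 2479 lower. The count of 10 rises became 6 without sham replicate 3 and also 6 without 24 h replicate 16. Among the 10, Slc39a11 was below background in every group.

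Slc30a9, a zinc transporter of mitochondria, went the other way. Its sham arrays read 12.71, 12.52, 12.57 and 12.64 and its 24 h arrays 11.45, 11.40, 11.26 and 11.83, with no overlap. It fell by 1.13 ± 0.14 at 24 h (adjusted p = 8.07e-06) and by 0.91 ± 0.14 at 72 h (adjusted p = 8.74e-05). The 10 cardiomyocyte markers had array means of 17.60 to 17.66 in sham, 17.09 to 17.42 at 24 h and 17.30 to 17.51 at 72 h, with 4 and then 3 of 10 called lower. Their part in the fall of Slc30a9 was not tested.

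At 72 h, when no metallothionein passed against sham, 5 of 24 zinc transporters had risen and 1 had fallen, beside 11.5% and 10.3% of all genes. Without Slc30a1 and Slc39a14 it was 5 and 1 of 22. Slc30a7, a zinc transporter of the Golgi apparatus, rose by 0.82 ± 0.15 at 24 h (adjusted p = 0.00045) and by 1.08 ± 0.15 at 72 h (adjusted p = 3.44e-05). Slc39a6 rose by 1.22 ± 0.33 at 72 h (adjusted p = 0.0105). The split of 5 and 1 was 3 and 3 with median centring and 13 and 0 with centring on the hybridization spike-ins. Over all 19505 genes the split was 1898 higher and 3532 lower with median centring and 7270 higher and 247 lower with hybridization spike-ins. The count of 5 rises became 3 without sham replicate 2 or 72 h replicate 20, and 2 without sham replicate 3 or 72 h replicate 21 or 23.

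**Figure D3:**
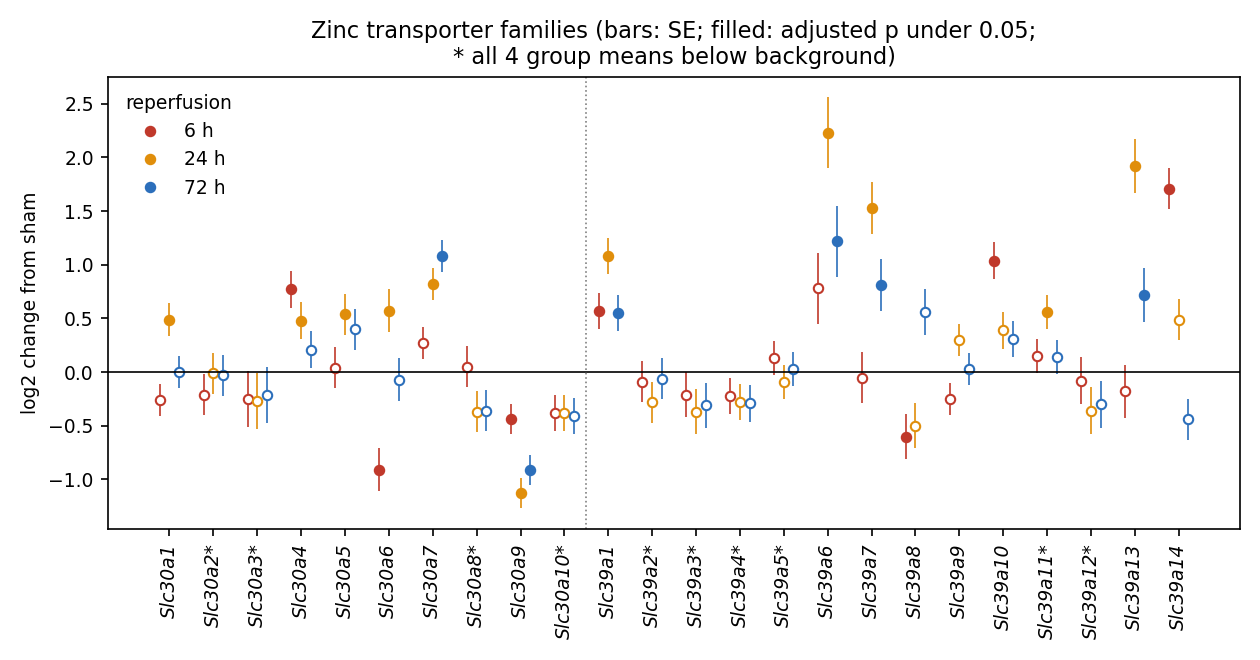
Change in log2 signal from sham (y axis) for the 10 SLC30 and 14 SLC39 genes (x axis, families parted by the dotted line) at 6, 24 and 72 h. Points are differences of the means of 4 and 4 arrays, bars are SE, filled points passed at an adjusted p under 0.05 and asterisks mark genes below background in every group; Slc39a14 is highest at 6 h, 1.71, and Slc39a6 at 24 h, 2.23.

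Other genes linked to MTF-1 were read from a list of 6 that also counts Slc39a10: Csrp1, Gclc, Ndrg1, Selenoh and Tgfbi are the rest. At 6 h, 4 of 6 rose and 0 fell, with a median change of 0.86 beside -0.04 over all genes, of which 7.92% rose and 12.3% fell. Ndrg1, a stress-response gene that hypoxia also raises, rose by 1.25 ± 0.22 at 6 h (adjusted p = 0.000278), and its changes at 24 and 72 h, 0.07 and 0.32, did not pass. Slc39a10, which MTF-1 is known to repress, rose at 6 h as given above and is 1 of the 4, so the count does not measure MTF-1 activity. Some genes of the list, such as Tgfbi, are less firmly tied to MTF-1 than the metallothioneins. Tgfbi, a matrix protein, rose at all 3 times, by 2.13, 3.91 and 3.42. At 24 h 1 of 6 rose and at 72 h 3 of 6 rose, beside 13.8% and 11.5% of all genes, and 0 fell at either time. Csrp1, a LIM protein of smooth muscle, rose at 72 h alone, by 1.22 (adjusted p = 0.000787).

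Copper and other metal transport was read from a list of 12 genes. Of these, 2 rose and 2 fell at 6 h, 3 rose and 3 fell at 24 h, and 3 rose and 2 fell at 72 h, with medians of -0.01, 0.00 and 0.08. Over all genes, 7.92% rose and 12.3% fell at 6 h, 13.8% and 12.3% at 24 h, and 11.5% and 10.3% at 72 h. Either way, 4, 6 and 5 of the 12 were called at 6, 24 and 72 h, beside 20.2%, 26.1% and 21.8% of all genes. With 12 genes these counts are small, and they were not tested as a set. Atp7a, the copper-exporting ATPase, read 7.97, 7.59, 7.66 and 8.18 in sham and 10.17, 10.20, 10.15 and 10.22 at 6 h, with no overlap, and rose by 2.33 ± 0.19 (adjusted p = 3.5e-08). It was still higher at 24 h, by 0.97 (adjusted p = 0.000673), and at 72 h, by 0.96 (adjusted p = 0.000927). Slc40a1, the iron exporter ferroportin, fell by 0.91 at 24 h (adjusted p = 0.00118) and rose by 1.12 at 72 h (adjusted p = 0.000239). Slc31a2, a copper transporter of internal membranes, fell at all 3 times, by 0.76, 1.02 and 0.77.

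Genes under the other known inputs of the metallothioneins were read beside them. Of 12 glucocorticoid-responsive genes, 10 rose and 1 fell at 6 h, with a median change of 1.90, 2 rose and 6 fell at 24 h, with a median of -0.49, and 2 rose and 2 fell at 72 h, with a median of -0.12. The shares of all genes that rose and fell were 7.92% and 12.3% at 6 h, 13.8% and 12.3% at 24 h, and 11.5% and 10.3% at 72 h. Fkbp5, a classic glucocorticoid target, rose by 4.36 ± 0.42 at 6 h (adjusted p = 3.38e-07), and its changes of -0.10 and -0.22 at 24 and 72 h did not pass. Tsc22d3, another such target, rose by 0.71 at 6 h (adjusted p = 0.0179) and fell by 0.72 at 24 h (adjusted p = 0.013), while Nr3c1, the receptor, fell by 0.68 at 6 h (adjusted p = 0.00229). Other genes of the list stayed higher: Lcn2 rose by 6.51, 6.32 and 2.12 at 6, 24 and 72 h. Cebpd, below background in sham, rose by 3.68, 1.47 and 1.00. Pdk4 rose by 4.01 at 6 h, fell by 1.23 at 24 h and did not pass at 72 h. Of 14 genes of the interleukin-6 family and STAT3, 9 rose and 1 fell at 6 h, 6 rose and 2 fell at 24 h, and 6 rose and 1 fell at 72 h, with medians of 0.94, 0.51 and 0.40, against the same shares of all genes, and 5 of the 14 were below background in every group. Il6 read 3.51, 3.10, 3.46 and 3.63 in sham, all below background, and 10.71, 10.41, 11.51 and 8.99 at 6 h. It rose by 6.98 ± 0.47 (adjusted p = 3.37e-09), a size that depends on the background. Stat3 rose by 0.86 ± 0.18 at 6 h (adjusted p = 0.00151) and Socs3, its feedback inhibitor, by 1.63 ± 0.25 (adjusted p = 7.48e-05), with sham and 6 h means of Socs3 both below background. Hmox1, the heme oxygenase gene that oxidants raise, rose at all 3 times, by 6.20, 4.57 and 5.83. The part of any of these inputs in the metallothionein values was not tested.

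The sham arrays were not alike in these genes, a pattern that was picked out after the values were seen. Sham replicate 5 was the lowest sham array for Mt1, Mt2, Mtf1 and Slc39a14 and the highest for Slc30a1. It was also the lowest for Fkbp5, at 8.51 against 10.35, 11.85 and 10.36, and for Stat3, at 10.78 against 11.65, 11.48 and 11.76. Its mean over the 12 glucocorticoid-responsive genes was 9.68, against 10.20, 10.45 and 10.31 in the other 3. Sham replicate 3 was at the other end, the highest sham array for Mt1, Mt2, Mtf1, Slc39a14 and Fkbp5. The mean over the 12 neutrophil markers was also lowest in replicate 5, at 4.03, and highest in replicate 3, at 4.33, with 4.29 and 4.15 in replicates 2 and 4. These means all lay below the background of 6.76, and 4 of the 12 markers were below it in every group. Such small differences there may be noise. The mean over the 14 monocyte and macrophage markers ran the other way in sham. It was highest in replicate 5, at 8.47, and lowest in replicate 3, at 8.31, with 8.34 in replicates 2 and 4. The part of neutrophils or other leukocytes in the sham spread was not tested.

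Cell markers moved with the times as well. The 12 neutrophil markers had array means of 4.03 to 4.33 in sham, 6.26 to 7.85 at 6 h, 5.21 to 7.78 at 24 h and 4.61 to 5.80 at 72 h, and 8, 9 and 2 of 12 rose. The 14 monocyte and macrophage markers had array means of 8.31 to 8.47 in sham, 9.36 to 9.69 at 6 h, 10.24 to 11.72 at 24 h and 11.03 to 11.85 at 72 h, and 8, 13 and 13 of 14 rose. The 9 fibroblast markers reached 13.11 to 13.62 at 72 h from 10.99 to 11.19 in sham. The part of these cells in the values of the 6 genes was not tested.

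The genes nearest in pattern were found for the 3 genes whose group means span at least 1 log2 unit. Each gene's values were taken relative to its own sham mean, and the root mean square difference over the 16 arrays was ranked. Genes with symbols of Gm and a number, ending in Rik or starting with LOC were left out of the ranking. Mt2, with a span of 3.92, was nearest to Osmr, the oncostatin M receptor (0.679), to Errfi1, an inhibitor of the epidermal growth factor receptor (0.712), and to Cxcl1, a neutrophil chemokine (0.713). Osmr rose by 3.74, 2.41 and 1.25 at the 3 times and Cxcl1 by 3.90 and 1.82 at 6 and 24 h, with the sham mean of Cxcl1 below background. Mt1, with a span of 1.67, was nearest to Raph1 (0.262), Uhrf1bp1l (0.297) and Hipk1, a nuclear kinase (0.306). Slc39a14, with a span of 2.14, was nearest to Slc25a25, a mitochondrial carrier that was below background in every group but 6 h (0.270), Ppp2r2a, a regulatory subunit of protein phosphatase 2A (0.284), and Dusp27 (0.289). Neither metallothionein was among the 3 nearest of the other. The measure is not scaled by the size of a gene's change, so spans of 1.67 and 3.92 set them apart whatever their shape. It therefore does not compare the shapes of their time courses.

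**Figure D4:**
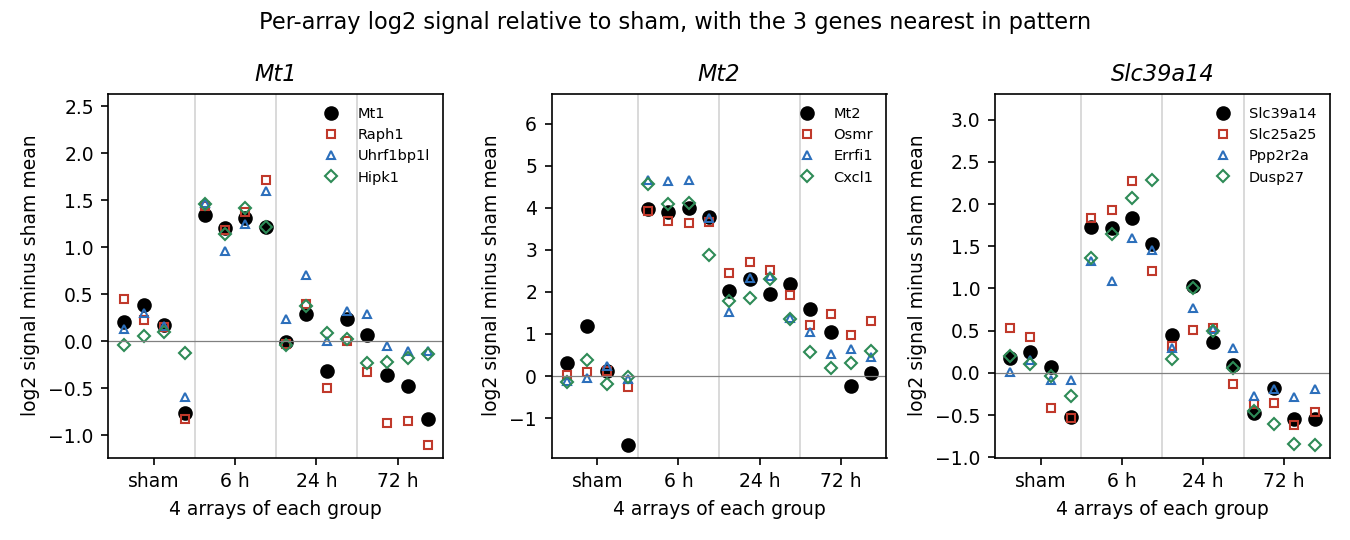
Log2 signal minus the gene's own sham mean (y axis) on each of the 16 arrays in order of group (x axis) for Mt1, Mt2 and Slc39a14 (filled circles) and the 3 genes nearest to each in pattern (open symbols). In all 3 panels the filled circles are highest at 6 h; the sham array far below 0 in the Mt1 and Mt2 panels is replicate 5.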

How the data were processed

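The deposited table covers 28846 probe sets and 16 arrays. The authors made these log2 values with Affymetrix Expression Console, per the submitters' processing notes. The sources used here do not give its version or summarization method, and the log base was taken as 2. The design text names another array than the probe set identifiers, and the title other hours than the labels; identifiers and labels were followed. Platform annotation gave 19572 probe sets 1 symbol and 0 several. For 55 genes with several, the highest mean was kept, which left 19505 genes.

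A model of the 4 group means was fitted (lmFit, then eBayes) to all 16 arrays in limma 3.58.1 (R 4.3.3), with Benjamini-Hochberg adjustment over 19505 genes and a threshold of 0.05. The number of arrays limits the precision (median SE of a change 0.183). The labels give 4 samples per group, so p-values measure the spread between these samples. The fit was tested on simulated data.

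All 6 genes are named, with the 3 nearest genes in pattern and genes fixed by name. Up to 4 genes per list with the largest change past the threshold were picked out, and not all of these are named in the text. Members and lists were chosen with earlier results of these data known. The 9 marker lists held 93 genes, of which 87 were measured. The alternatives were quantile normalization, median and spike-in centring, a filter at 6.76, other limma settings, fits of 2 groups only and leaving out each of the 16 arrays. Figures were drawn with matplotlib 3.10.9.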

Additional observations from a re-analysis of the deposited data

Results flagged for a closer look

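The changes against sham differed between reperfusion times for 4 of the 6 genes, by limma's test of the difference between times, in which the shared sham arrays drop out. For Mt2 the difference was -1.80 log2 units at 24 h against 6 h, -1.49 at 72 h against 24 h and -3.29 at 72 h against 6 h. For Slc39a14 the same 3 differences were -1.22, -0.92 and -2.14. For Mt1 they were -1.22 at 24 h against 6 h and -1.67 at 72 h against 6 h. Slc30a1 ran the other way first, with 0.75 at 24 h against 6 h, and then -0.49 at 72 h against 24 h. In 24 sets of 4 arrays, 0 held an array whose gap to the rest passed Dixon's critical value for 4, sham replicate 5 included.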

How the results depend on the processing

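The rises of Mt2 at 6 and 24 h and of Mt1 and Slc39a14 at 6 h passed under all 10 other settings and on leaving out any of the 16 arrays. Mt2 at 6 h ran from 3.38 to 4.31 and Slc39a14 at 6 h from 1.54 to 1.79 over the left-out arrays. On leaving out 1 array, the count of the 6 genes called was 3 to 3 at 6 h, 1 to 3 at 24 h and 0 to 2 at 72 h against sham, 4 to 5 at 24 h against 6 h, 1 to 3 at 72 h against 24 h, and 3 to 3 at 72 h against 6 h; the F test called 4 to 4. The zinc transporters then counted 3 to 5 rises and 1 to 3 falls at 6 h, 6 to 11 rises and 1 to 1 falls at 24 h, and 2 to 6 rises and 1 to 2 falls at 72 h. Centring the arrays on the poly-A spike-ins called 5 of the 6 genes at 6 h, 1 at 24 h and 5 at 72 h against 6 h, and the zinc transporters counted 2 rises and 8 falls at 6 h and 5 rises and 2 falls at 24 h. Of all 19505 genes, that setting called 864 higher and 6087 lower at 6 h and 2033 higher and 2479 lower at 24 h. At 72 h against 6 h it called 9167 higher and 621 lower. Centring on the hybridization spike-ins called 2 of the 6 at 72 h and 6 at 72 h against 6 h, with 5 zinc transporter falls at 6 h and 13 rises and 0 falls at 72 h. With it, 7270 of all 19505 genes were called higher and 247 lower at 72 h, and 13629 higher and 479 lower at 72 h against 6 h. At 6 h, 975 were higher and 3993 lower. Median centring called 1 of the 6 at 72 h, with 1 fall at 6 h, 2 falls at 24 h, and 3 rises and 3 falls at 72 h. Over all 19505 genes it gave 2140 lower at 6 h, 3177 lower at 24 h, and 1898 higher and 3532 lower at 72 h. Fits of only the 2 groups called 1 of the 6 at 24 h, and array weights gave 2 falls at 72 h. Among all 19505 genes, these 2-group fits called 2525 higher and 2185 lower at 24 h, and array weights called 2762 lower at 72 h. With hybridization spike-in centring Mt3, below background, turned to 0.46 at 24 h against 6 h (adjusted p = 0.0261) and 0.58 at 72 h against 6 h (adjusted p = 0.00468), and Nudt21 turned to 0.49 at 72 h against sham (adjusted p = 0.0292). These centrings move all genes: the median change at 6, 24 and 72 h was -0.26, 0.24 and 0.40 with hybridization and -0.37, -0.16 and 0.09 with poly-A spike-ins, and -0.01, -0.14 and -0.20 with median centring. Of all calls against sham, the share that was higher was 39.2%, 53% and 52.9% as deposited, 19.6%, 84.4% and 96.7% with hybridization, 12.4%, 45.1% and 82.3% with poly-A and 43.4%, 42.5% and 35% with median centring. Slc30a1 at 24 h did not pass with poly-A centring (0.40, adjusted p = 0.135) or in the 2-group fit (adjusted p = 0.0544), and at 6 h it passed as lower with both spike-in centrings (-0.48 and -0.59). Over the settings other than leaving out an array, the F test called 4 to 6 of the 6 genes. At 24 h against 6 h the count was also 4 to 6. There, hybridization spike-in centring called 9811 of all 19505 genes higher and 539 lower. The cause of these moves was not tested. Mt3 was not in the fit of genes above background. No paired analysis was possible because no 2 groups share a replicate number.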
